A study of Mus musculus with 3 samples.

Results

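The vessel growth genes followed here were chosen by name, 10 of the 32285 gene rows of the deposited count matrices: the ligands Vegfa, Pgf, Angpt1, Angpt2 and Apln and the receptors Kdr, Flt1, Nrp1, Tek and Aplnr. They were read in single cells of the day 7 fracture callus of female C3H/HeJ mice, 9 weeks old, a strain that the study's design describes as slow to heal. Each mouse had a pinned femur broken at midshaft and then had daily subcutaneous injections. The PTH group was given PTH 1-34, an active fragment of parathyroid hormone, at 100 µg/kg. The YKL group was given YKL-05-099, an inhibitor of salt-inducible kinases, at 15 mg/kg. The control group was given the vehicle, PBS. Each group was 1 library, and the labels do not say how many animals it held or whether they were pooled. No test between groups was therefore possible, and no p-value is given. Intervals are exact 95% intervals that cover counting error only, not the spread between animals. Those of CPM and of ratios treat UMIs as independent draws, so they leave out the spread between cells too. They are too narrow where a few cells hold most UMIs of a gene.

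Vegfa, made by hypoxic cells and by hypertrophic chondrocytes of growing bone, signals mainly through the receptor Kdr on endothelial cells, with Nrp1 as co-receptor and Flt1 as a tight-binding receptor that can act as a decoy. Pgf is a relative of Vegfa that binds Flt1 and not Kdr. Angpt1 and Angpt2 both bind Tek, the first as its agonist from cells around the vessel and the second as a context-dependent antagonist released by endothelial cells, and Apln is the ligand of Aplnr on growing vessels. In endochondral repair, vessels grow into cartilage as its chondrocytes become hypertrophic.

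The libraries differed in size and make-up. The PTH, YKL and control libraries held 5286, 1500 and 8021 barcodes, of which 1906, 598 and 2904 were kept with at least 500 genes and at most 10% mitochondrial UMIs (unique molecular identifiers, the counted molecules). The PTH library lost 44.5% of its barcodes to the mitochondrial limit, the YKL library 18.5% and the control library 17.6%. Median depths of the kept cells were 12284, 25686 and 11632.5 UMIs in the PTH, YKL and control libraries. Of the 23 clusters, 7 were chondrocyte-like (766 PTH, 443 YKL and 1602 control cells) and 2 were endothelial-like (290, 51 and 188 cells). Another cluster, of 13 PTH, 2 YKL and 101 control cells, held all 16 chondrocyte markers. It stayed unnamed and outside the chondrocyte-like class because haemoglobin made up 22.2% of its UMIs. Fibroblast-like cells numbered 274, 17 and 108 and pericyte-like cells 61, 9 and 76 in the PTH, YKL and control libraries. No cluster met the rule for osteoblasts; osteoblast markers together were highest in 2 of the chondrocyte-like clusters, numbered 4 (1442 CPM) and 7 (954 CPM). Libraries shared 2 to 8 cell barcodes by pair. Levels are CPM, the UMIs of a gene per 1000000 UMIs of the class or cluster, and are set side by side between libraries for 1 gene, not between genes.

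Most Vegfa UMIs were counted in chondrocyte-like cells in each library. That class held 92.4% of Vegfa UMIs in the PTH library, 97.4% in the YKL library and 90.8% in the control library, while it held 51.4%, 87.6% and 72.0% of all UMIs. Unnamed cells held 2.16%, 1.19% and 5.94% of Vegfa UMIs in the PTH, YKL and control libraries. Apln, known as a signal of endothelial tip cells, was also counted mostly in chondrocyte-like cells, at 82.7% of its UMIs in the PTH, 95.3% in the YKL and 88.5% in the control library. Endothelial-like cells added 13.2% of Apln UMIs in the PTH library, 2.59% in the YKL library and 3.60% in the control library. Stromal classes held the largest share of Pgf and Angpt1 in the PTH and control libraries. Fibroblast-like cells held 61.7% of Pgf UMIs in the PTH library, 19.4% in the YKL library, which had 17 such cells, and 36.5% in the control library. For Angpt1 their share was 51.7%, 22.5% and 42.3% in the PTH, YKL and control libraries, with a further 21.9% in tendon-like cells of the PTH library. Chondrocyte-like cells held 1.64% of Pgf UMIs in the PTH, 33.3% in the YKL and 18.8% in the control library, and 18.1%, 67.6% and 39.7% of Angpt1 UMIs, so that in the YKL library they were the largest class for both.

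**Figure D1:**
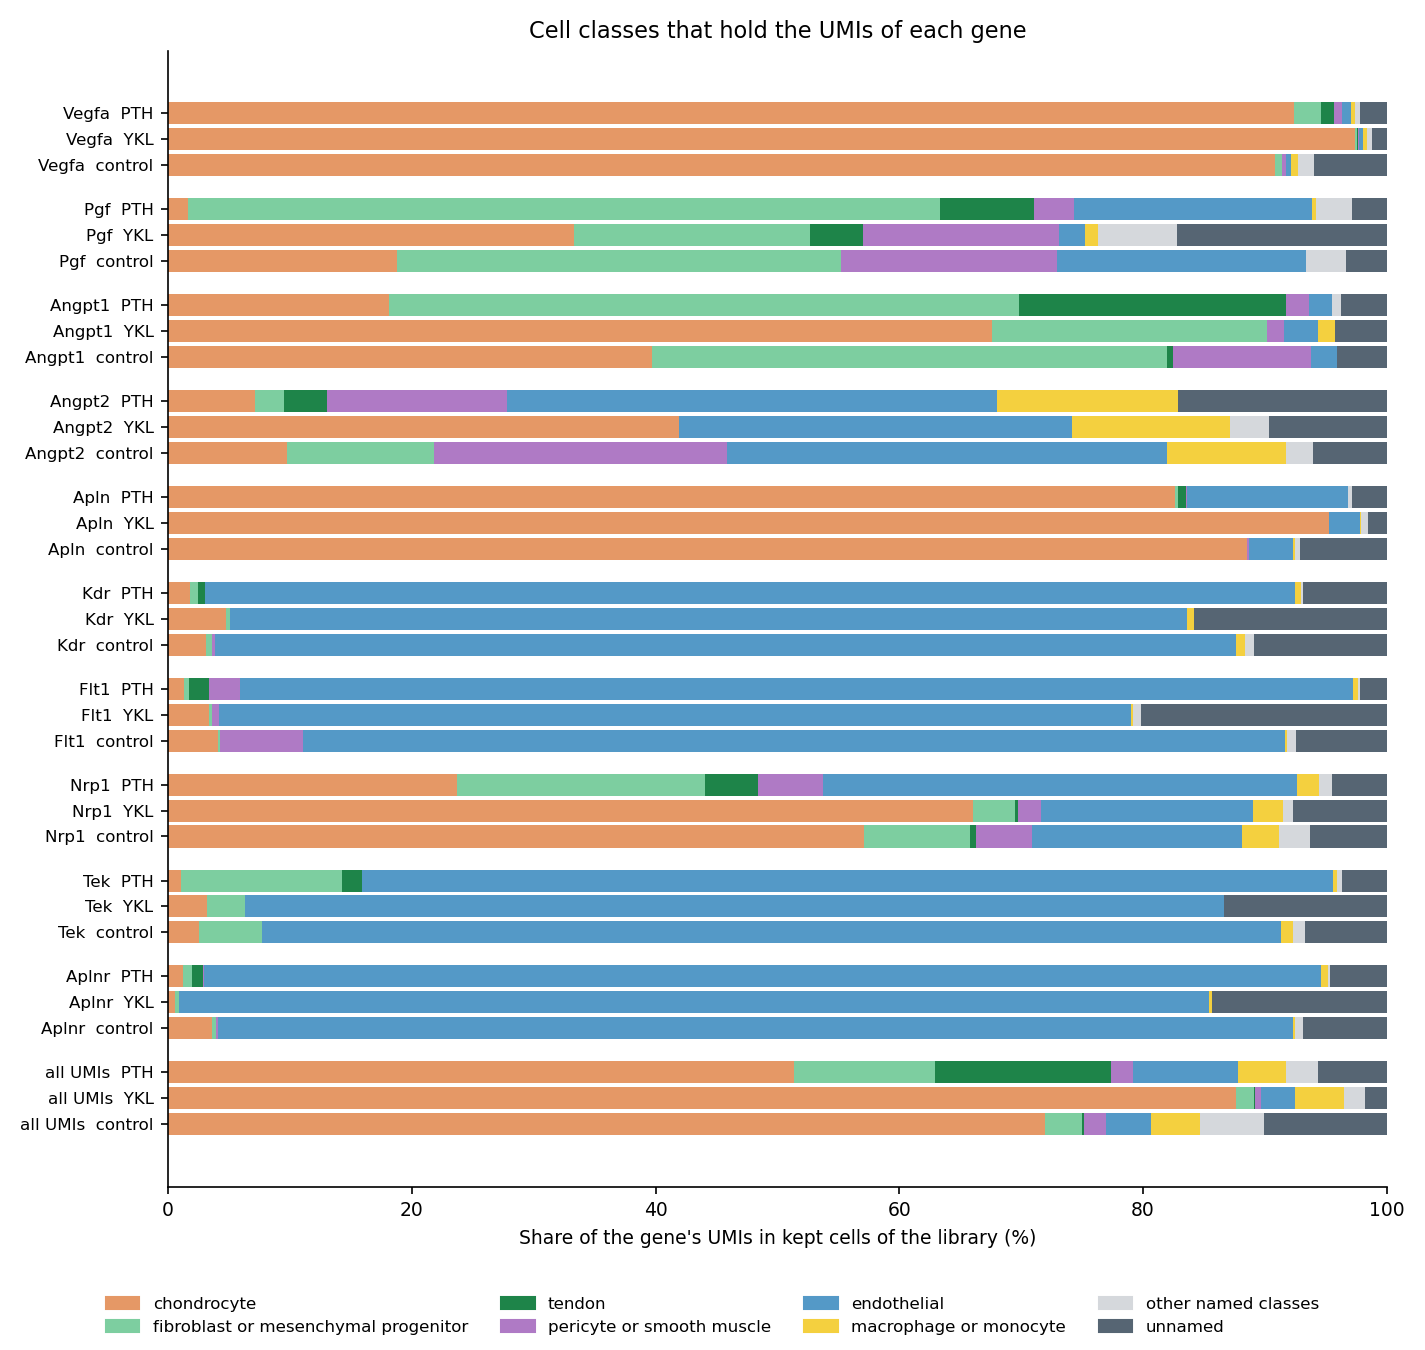
Stacked shares (%, x axis) of each ligand's and receptor's UMIs by cell class, with a row for the PTH, YKL and control library each, and the same split of all UMIs for reference. Vegfa and Apln lie mostly in the chondrocyte-like class, Kdr, Flt1, Tek and Aplnr in the endothelial-like class, and Pgf, Angpt1 and Angpt2 are spread over several classes.

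The receptors were counted mainly in endothelial-like cells, except Nrp1. Of Kdr UMIs, 89.4% in the PTH, 78.5% in the YKL and 83.8% in the control library lay in that class. The shares were 91.3%, 74.8% and 80.6% for Flt1, 79.7%, 80.3% and 83.7% for Tek, and 91.6%, 84.5% and 88.2% for Aplnr. Unnamed cells, which include a cluster led by cell cycle genes, held a further 6.84% of Kdr UMIs in the PTH, 15.8% in the YKL and 10.9% in the control library, and 17 such cells held 20.2% of Flt1 UMIs in the YKL library. Nrp1, which also binds semaphorins, was counted in chondrocyte-like cells at 23.7% of its UMIs in the PTH, 66.0% in the YKL and 57.1% in the control library, and in endothelial-like cells at 38.9%, 17.4% and 17.2%. These shares move with how many cells of a class each library held.

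**Figure D2:**
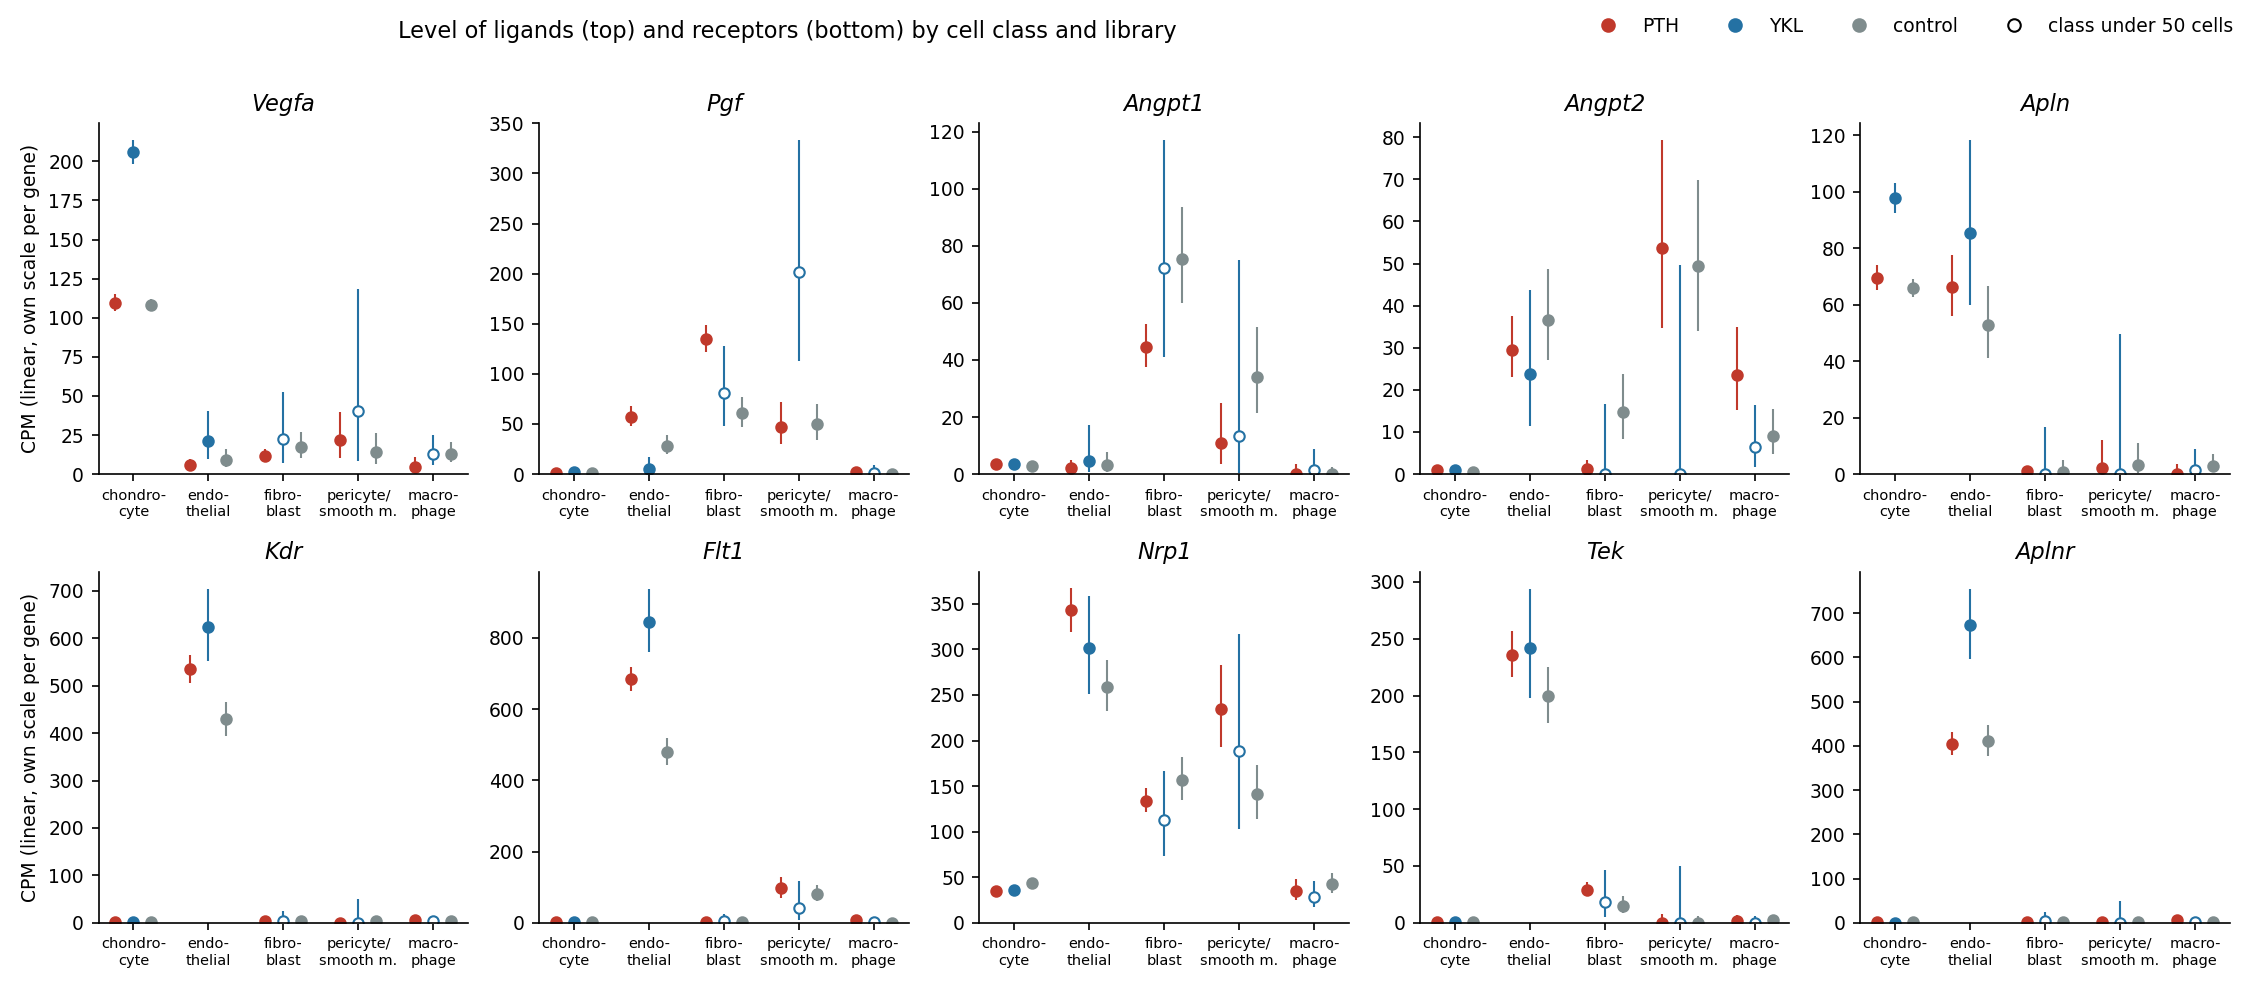
CPM (y axis) of each of the 10 genes in 5 cell classes, with PTH, YKL and control values side by side, exact 95% Poisson intervals, and hollow points where the class had under 50 cells in that library. Chondrocyte-like Vegfa stands at 206 CPM in the YKL library, against 109.5 CPM in the PTH and 108 CPM in the control library.

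Chondrocyte-like cells gave 109.5 CPM of Vegfa in the PTH library (1500 UMIs, 95% interval 104 to 115), 206 CPM in the YKL library (2788 UMIs, 198 to 214) and 108 CPM in the control library (2784 UMIs, 104 to 112). The YKL value lay above the other libraries and the PTH and control intervals overlapped. The PTH to control ratio was 1.01 (0.952 to 1.08) and the YKL to control ratio 1.91 (1.81 to 2.01); both share the control library. After each cell was thinned to 2000 UMIs, 18.8% of PTH, 31.9% of YKL and 19.5% of control chondrocyte-like cells had a Vegfa UMI (57.2%, 79.5% and 63.9% unthinned). In endothelial-like cells, which gave few Vegfa UMIs, the thinned shares were 1.18%, 4.65% and 1.85%. Apln, the ligand of Aplnr, stood at 69.6 CPM in the PTH, 97.8 CPM in the YKL and 65.8 CPM in the control chondrocyte-like cells. Its ratio to control was 1.06 (0.976 to 1.15) in PTH and 1.49 (1.38 to 1.60) in YKL cells. Nrp1, the co-receptor, stood at 35.1, 35.6 and 43.7 CPM in PTH, YKL and control chondrocyte-like cells, a ratio of 0.804 (0.721 to 0.895) for PTH and 0.815 (0.731 to 0.908) for YKL.

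A gene counted as measured where the libraries compared held 50 or more of its UMIs in the class together, and as past 1.5-fold in either direction by its ratio. In PTH against control chondrocyte-like cells 0 of 5 measured genes were past it, beside 10.0% of all genes (6.85% higher and 3.20% lower). In YKL against control, 2 of 5 were, Vegfa and Pgf, both higher, beside 17.7% of all genes (9.65% higher and 8.04% lower). Pgf rests on 31 UMIs in the YKL and 34 in the control cells, a ratio of 1.74 (1.03 to 2.91), and missed the minimum in PTH against control, with 11 UMIs in PTH cells. Over 15 other settings Vegfa was past 1.5-fold in YKL chondrocyte-like cells in 15, Pgf in 11 and Apln in 8. Angpt1 was low in chondrocyte-like cells of each library, at 3.50 CPM in the PTH, 3.55 CPM in the YKL and 2.99 CPM in the control library. Flt1 reached the minimum in PTH against control alone, with a ratio of 1.29 and 22 UMIs in PTH cells. With erythroid and neutrophil markers left out of the totals its ratio was 1.292 (0.715 to 2.294), an interval that spanned 1. The receptors Kdr, Tek and Aplnr and the ligand Angpt2 stayed under 50 UMIs there in both comparisons.

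Different clusters held most chondrocyte-like cells in each library: clusters 7 (169 cells), 1 (133) and 4 (122) in the PTH, clusters 4 (141), 8 (117) and 9 (75) in the YKL, and clusters 0 and 2 (356 cells each) and 1 (327) in the control library. The clusters were made with the 10 genes left out of the variable genes. Vegfa was highest in cluster 8, led by Col10a1, Ibsp, Mmp13 and Ihh, genes of hypertrophic cartilage, at 374.5 CPM in PTH, 406 CPM in YKL and 256 CPM in control cells. Within cluster 8 the ratio to control was 1.46 (1.29 to 1.67) for PTH and 1.59 (1.42 to 1.78) for YKL. Among the leading genes of cluster 9, beside cartilage genes such as Col9a3, Col9a2 and Hapln1, were Bnip3, Adm and Ero1l, genes known to respond to hypoxia. Bnip3 was among those of cluster 0 as well. Cluster 9 was next in Vegfa, at 249 CPM in PTH, 285 CPM in YKL and 229.5 CPM in control cells. There the ratios were 1.09 (0.931 to 1.26) and 1.24 (1.10 to 1.41). Cluster 9 had little of the hypertrophic collagen Col10a1, 331 CPM in PTH, 901 CPM in YKL and 394 CPM in control cells, while cluster 8 had 14550, 25510 and 28010 CPM.

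Other clusters had less Vegfa, with ratios on both sides of 1 for PTH. In cluster 1, led by Omd, Vegfa stood at 88.0 CPM in PTH and 105.5 CPM in control cells, a ratio of 0.835 (0.708 to 0.980), and in cluster 2, led by Ucma, at 19.9 and 36.2 CPM, a ratio of 0.549 (0.394 to 0.749). The YKL library had 12 and 4 cells in these clusters and was not compared there. In cluster 0, led by Col9a3, Vegfa stood at 134 CPM in PTH, 270 CPM in YKL and 161 CPM in control cells, a PTH ratio of 0.830 (0.685 to 1.00) and a YKL ratio of 1.68 (1.42 to 1.96). In cluster 4, led by Ibsp, Col10a1 and Alpl, it stood at 94.9, 134 and 67.5 CPM in PTH, YKL and control cells, ratios of 1.41 (1.17 to 1.69) and 1.98 (1.71 to 2.30). Cluster 7, in which Col1a1 was among the leading genes, had 20.2 CPM in PTH, 19.5 CPM in YKL and 26.3 CPM in control cells, with both ratio intervals spanning 1. It held 169 of the 766 PTH chondrocyte-like cells, and without it the class ratios for Vegfa were 1.18 for PTH and 2.14 for YKL. Apln had the same leading clusters as Vegfa. In cluster 8 it stood at 232 CPM in PTH, 179 CPM in YKL and 120 CPM in control cells, and in cluster 9 at 239, 187 and 213.5 CPM. The Apln ratio to control in cluster 8 was 1.94 (1.62 to 2.33) for PTH and 1.499 (1.27 to 1.78) for YKL, while in cluster 9 both intervals spanned 1.

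**Figure D3:**
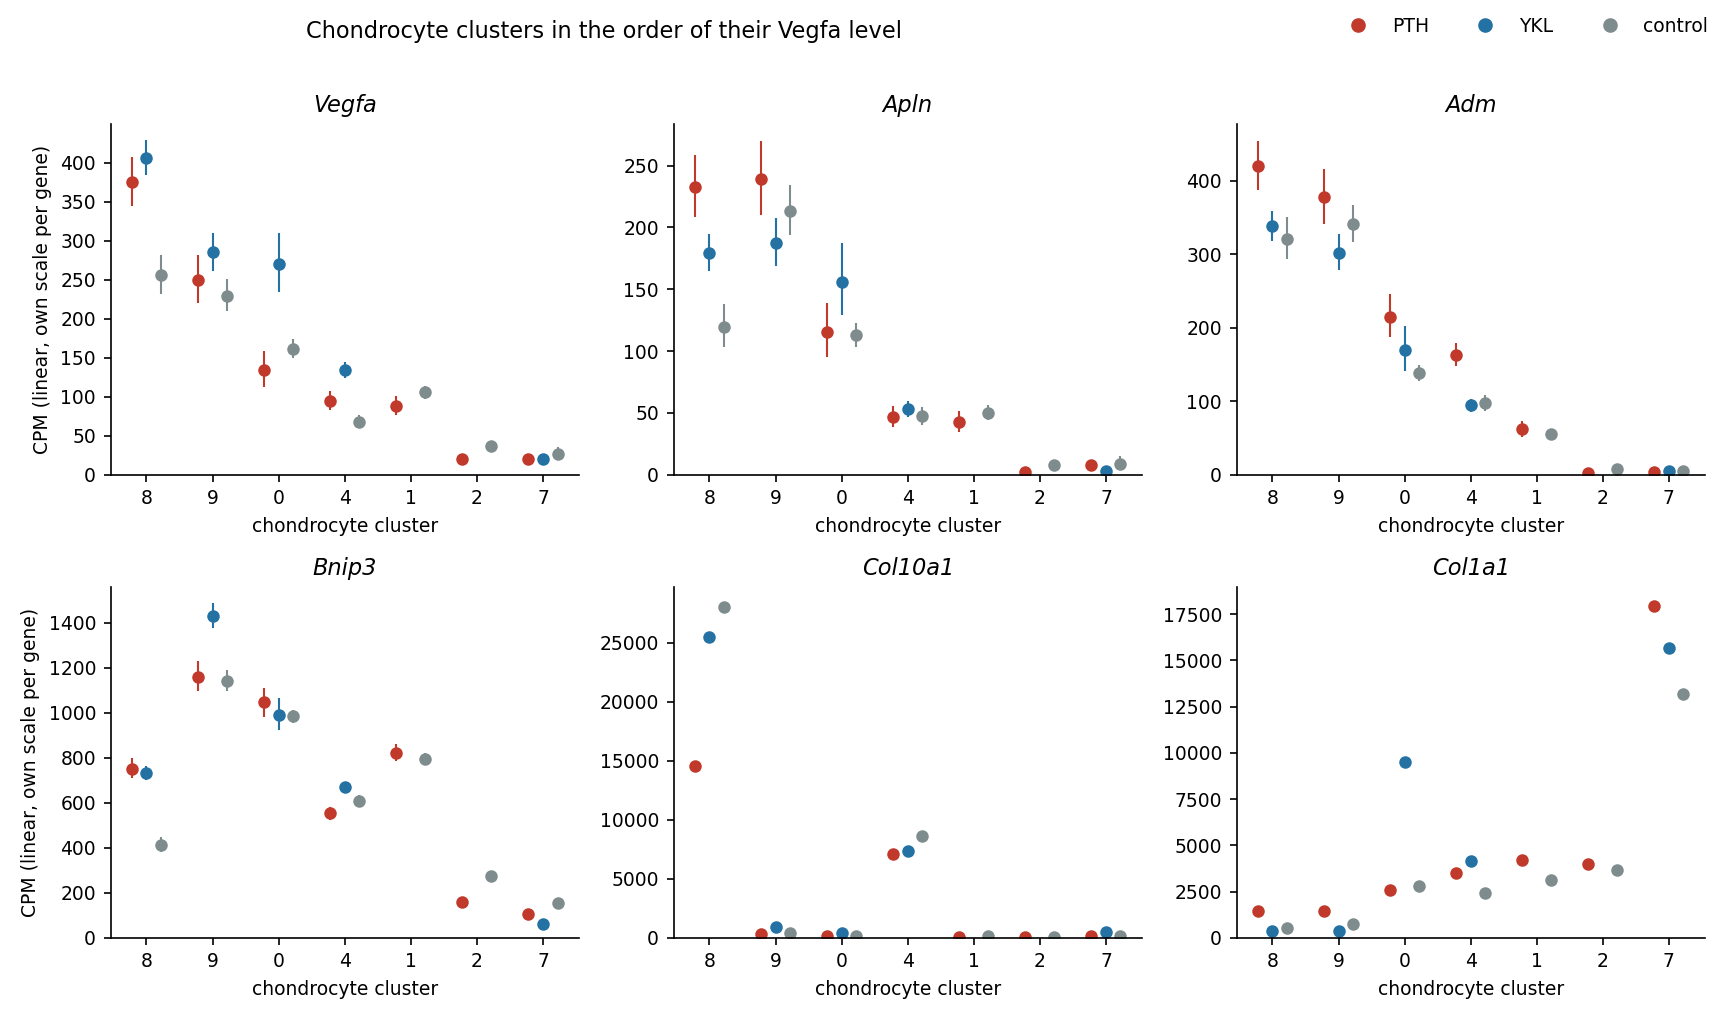
CPM (y axis) of Vegfa, Apln, Adm, Bnip3, Col10a1 and Col1a1 in each chondrocyte-like cluster (x axis), with PTH, YKL and control values side by side and 95% Poisson intervals; clusters with under 20 cells in a library are not drawn. Vegfa and Apln are high in clusters 8 and 9, of which only cluster 8 is high in Col10a1, and low in clusters 2 and 7.

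Over the 19 cluster-by-library profiles of chondrocyte-like cells with at least 20 cells, Pearson's r of Vegfa was 0.97 with Apln and 0.96 with Adm, a vasoactive peptide induced by hypoxia. It was 0.84 with the hypoxia gene Bnip3, 0.79 with the glucose transporter Slc2a1, 0.52 with Col10a1 and −0.76 with Col1a1. With Apln it was 0.98 within the PTH, 0.99 within the YKL and 0.96 within the control library, over 7, 5 and 7 profiles. Clusters of 1 library share its free RNA, and levels within a profile share its total, so these values describe and carry no test. The same pairing was seen in single cells: 58.7% of PTH, 73.0% of YKL and 54.7% of control chondrocyte-like cells with a Vegfa UMI also had an Apln UMI. Among cells without Vegfa 10.1%, 18.7% and 20.2% did, at median depths of 16055, 32113 and 15293.5 UMIs, against 18316, 29255 and 16404 UMIs in the cells with Vegfa.

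Chondrocyte-like cells were also cut by their Col10a1 UMIs after thinning, into zero (0 UMIs), low (1 to 9) and high (10 or more), ranges of a level and not cell types. The high range held 94 of 744 PTH cells (12.6%), 155 of 426 YKL cells (36.4%) and 168 of 1562 control cells (10.8%), and 18, 31 and 30 cells lay between 8 and 11 UMIs, near the limit. In the PTH library Vegfa stood at 261 CPM in high and 69.2 CPM in zero cells, a ratio of 3.78 (3.34 to 4.27). In the YKL library it stood at 304 CPM in high and 128 CPM in zero cells, a ratio of 2.38 (2.16 to 2.63), and in the control library at 167 and 98.3 CPM, a ratio of 1.70 (1.53 to 1.89). Without cluster 7 the ratio was 2.95 in PTH, 1.49 in YKL and 1.65 in control cells. Vegfa was higher in the Col10a1-high cells of each library. Within the high range the ratio to control was 1.57 (1.37 to 1.79) for PTH and 1.82 (1.64 to 2.03) for YKL. Within the zero range it was 0.704 (0.641 to 0.772) for PTH and 1.30 (1.18 to 1.43) for YKL. Within the low range, where it stood at 139 CPM in PTH, 174 CPM in YKL and 107 CPM in control cells, it was 1.29 (1.14 to 1.47) for PTH and 1.62 (1.45 to 1.81) for YKL. Against control, PTH cells were thus higher in the high and low ranges and lower in the zero range. The zero cells themselves differed between libraries. Before thinning 34.3% of PTH, 89.6% of YKL and 49.5% of control zero cells had a Col10a1 UMI. Their median depths were 17640, 30534 and 16140 UMIs, and their Col1a1 levels 7588, 9470 and 3803 CPM. The part of these differences in the Vegfa ratios was not tested.

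Apln followed the ranges likewise. It stood at 156 CPM in high and 43.3 CPM in zero cells of the PTH library, at 127 and 66.4 CPM in the YKL library, and at 86.0 and 58.0 CPM in the control library. Within the high range its ratio to control was 1.81 (1.52 to 2.17) for PTH and 1.48 (1.27 to 1.73) for YKL. Nrp1 ran the other way in the PTH library, at 15.2 CPM in high and 39.4 CPM in zero cells, against 34.6 and 39.8 CPM in the YKL library and 39.9 and 44.5 CPM in the control library.

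**Figure D4:**
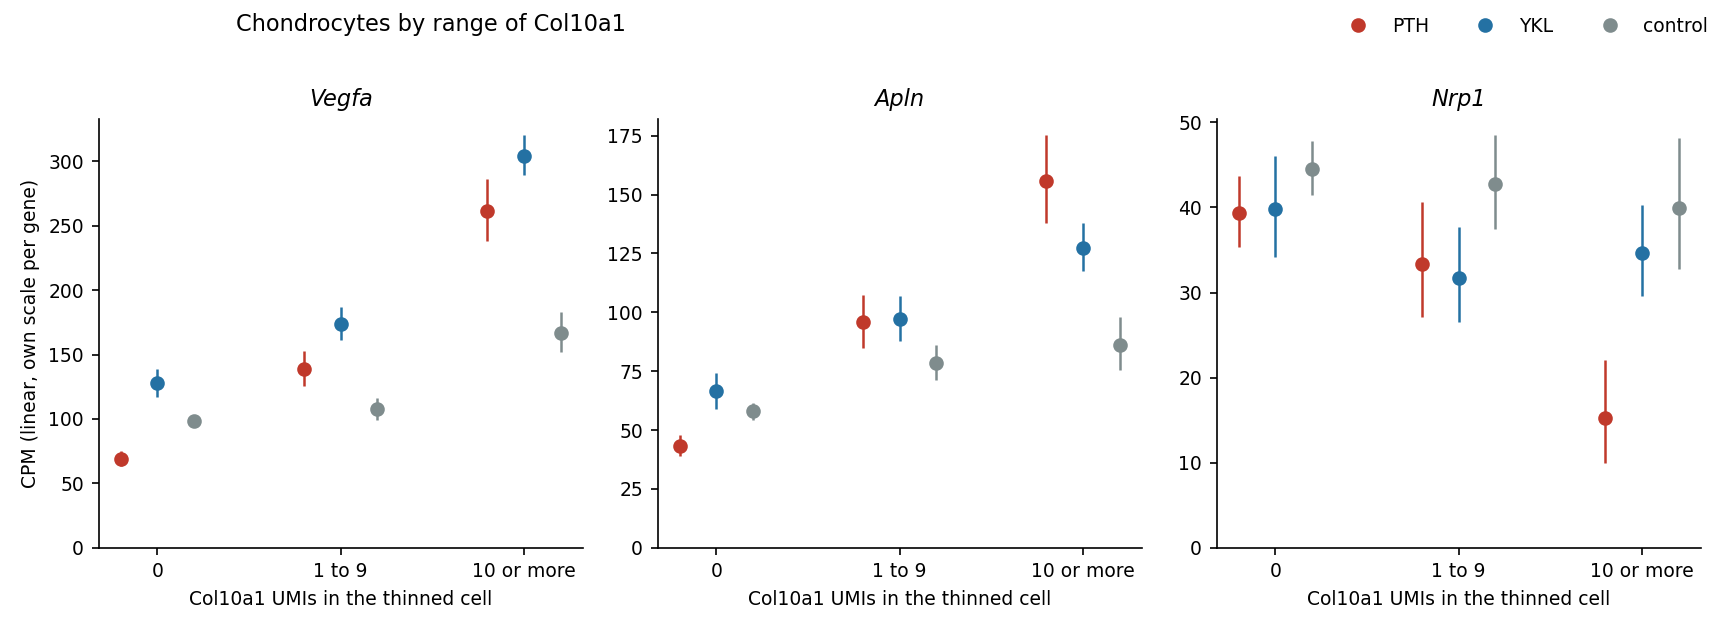
CPM (y axis) of Vegfa, Apln and Nrp1 in chondrocyte-like cells with zero, low and high Col10a1 UMIs after thinning to 2000 UMIs (x axis), with PTH, YKL and control values side by side and 95% Poisson intervals. In the high range Vegfa is at 261 CPM in PTH and 304 CPM in YKL cells, against 167 CPM in control cells, and in the zero range at 69.2, 128 and 98.3 CPM.

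Since Vegfa and Apln had nearly the same cluster profile, their promoters are shown, the 250 bases before each start site in RefSeq (GRCm38.p6), 5′ to 3′ on the gene's strand. The gene Vegfa lies on chromosome 17 (46016993 to 46032369, minus strand) and Apln on chromosome X (48025146 to 48034853, minus strand) in GENCODE M21 on GRCm38. Capitals mark the hypoxia response core ACGTG and the cAMP response element core TGACG, searched on both strands, which in all promoter windows of this length were found in 16.6% and 17.8% of 32851.
Vegfa, first start site, chr17:46032378-46032627: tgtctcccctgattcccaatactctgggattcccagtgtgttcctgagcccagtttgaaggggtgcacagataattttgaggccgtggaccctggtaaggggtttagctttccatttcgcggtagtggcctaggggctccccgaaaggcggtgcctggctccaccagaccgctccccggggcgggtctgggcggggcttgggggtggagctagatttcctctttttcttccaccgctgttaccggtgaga
Vegfa, second start site, chr17:46025164-46025413: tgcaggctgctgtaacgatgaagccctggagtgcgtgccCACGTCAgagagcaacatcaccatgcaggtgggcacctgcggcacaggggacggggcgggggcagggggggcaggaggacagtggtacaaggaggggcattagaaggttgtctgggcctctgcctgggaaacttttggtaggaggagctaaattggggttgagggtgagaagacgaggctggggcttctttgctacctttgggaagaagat
Apln, chrX:48034854-48035103: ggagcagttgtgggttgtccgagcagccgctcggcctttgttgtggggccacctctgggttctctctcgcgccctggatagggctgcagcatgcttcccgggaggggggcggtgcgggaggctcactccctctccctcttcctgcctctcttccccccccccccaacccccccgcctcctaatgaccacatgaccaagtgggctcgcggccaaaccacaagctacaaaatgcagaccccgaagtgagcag
Neither motif is in the window of the first Vegfa start site or in that of Apln, which overlap no annotated exon. The window of the second Vegfa start site lies inside the gene and holds both motifs as 1 overlapping run, at -211 and -209 from the start, in a coding exon of Vegfa. A match is only a run of letters, and its absence from these windows says nothing about sites elsewhere.

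Pgf and Angpt1, whose largest class in the PTH and control libraries was the fibroblast-like one, differed between the PTH and control libraries in opposite directions in fibroblast-like cells. Pgf stood at 134.7 CPM in PTH cells (414 UMIs), 81.1 CPM in the 17 YKL cells (18 UMIs) and 60.6 CPM in control cells (66 UMIs). Its PTH to control ratio was 2.22 (1.71 to 2.93), and after thinning 22.7% of PTH and 12.0% of control fibroblast-like cells had a Pgf UMI (45.6% and 29.6% unthinned). Angpt1, the Tek agonist, stood at 44.6 CPM in PTH, 72.1 CPM in YKL and 75.3 CPM in control cells, a PTH ratio of 0.592 (0.447 to 0.788). Tek itself was also counted in fibroblast-like cells, at 29.3 CPM in PTH cells (90 UMIs) and 14.7 CPM in control cells (16 UMIs), a ratio of 1.99 (1.16 to 3.64). Nrp1 stood at 134 CPM in PTH and 157 CPM in control cells, a ratio of 0.854 (0.713 to 1.03).

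The other 5 of the 10 genes had too few UMIs in this class. Of the 5 measured, 4 were past 1.5-fold in PTH against control cells, beside 17.5% of all genes. Pgf and Tek were the 2 higher (10.3% of all genes) and Angpt1 and Vegfa the 2 lower (7.20% of all genes). Vegfa rests on 35 UMIs in PTH and 19 in control cells, and its ratio of 0.653 had an interval of 0.363 to 1.21. Endothelial markers summed to 158.5 CPM in PTH and 122 CPM in control fibroblast-like cells, tendon markers to 2307 and 1518 CPM, chondrocyte markers to 389 and 1425 CPM and erythroid markers to 4446 and 19240 CPM. Their part in these differences was not tested. With erythroid and neutrophil markers left out of the totals the Pgf ratio was 2.19, the Angpt1 ratio 0.583 and the Tek ratio 1.96. The YKL library had too few fibroblast-like cells for a comparison.

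Tendon-like cells, 235 of them in the PTH library and 4 or fewer in the others, gave 13.4 CPM of Pgf and 15.0 CPM of Angpt1. Pericyte-like cells, the mural cells of vessels, had 234 CPM of Nrp1 in the PTH and 141 CPM in the control library, a ratio of 1.66 (1.25 to 2.22). It was the 1 of 4 genes measured there past 1.5-fold, beside 15.5% of all genes (11.4% higher and 4.12% lower). In those cells Pgf stood at 47.3 CPM in PTH and 49.5 CPM in control cells. The decoy receptor Flt1 stood at 96.8 CPM in PTH and 82.0 CPM in control cells, a ratio of 1.18 (0.775 to 1.79). Angpt1 was counted 5 times in PTH and 22 times in control pericyte-like cells, and Tek was not counted in that class in any library. With erythroid and neutrophil markers left out, which made up 0.6996% of PTH and 6.54% of control pericyte-like UMIs, the Nrp1 ratio was 1.57. In macrophage-like cells Nrp1, the 1 gene measured, stood at 35.0 CPM in PTH and 42.3 CPM in control cells and was not past 1.5-fold, beside 27.2% of all genes that were (18.6% higher and 8.59% lower).

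Angpt2, the Tek antagonist, was thinly counted, with 169 UMIs in the PTH, 31 in the YKL and 133 in the control library. Endothelial-like cells held 40.2%, 32.3% and 36.1% of them in the PTH, YKL and control libraries, and pericyte-like and macrophage-like cells 14.8% each in the PTH and 24.1% and 9.77% in the control library. Angpt2 overlaps Mcph1 on the opposite strand and Angpt1 overlaps Gm17473 on the opposite strand. On GRCm38 the gene Angpt2 lies on chromosome 8 (18690263 to 18741562, minus strand), Angpt1 on chromosome 15 (42424723 to 42676977, minus strand), Pgf on chromosome 12 (85166635 to 85177790, minus strand), Nrp1 on chromosome 8 (128358604 to 128503363, plus strand) and Aplnr on chromosome 2 (85136225 to 85139923, plus strand). The sources used here do not say whether counting used strand, and without strand the reads of each pair cannot be told apart.

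Endothelial-like cells of both treated libraries had higher Kdr, Flt1, Nrp1 and Tek CPM than those of the control library. The YKL intervals of Nrp1 and Tek spanned 1. Kdr, the signalling receptor, stood at 535 CPM in PTH (1229 UMIs), 625 CPM in YKL (263 UMIs) and 429 CPM in control cells (562 UMIs). The ratio to control was 1.25 (1.13 to 1.38) for PTH and 1.46 (1.25 to 1.69) for YKL. After thinning, 62.6% of PTH, 76.7% of YKL and 52.5% of control endothelial-like cells had a Kdr UMI (86.2%, 86.3% and 74.5% unthinned). In chondrocyte-like cells the thinned shares were 0.134% of PTH cells, 0 of 426 YKL cells, where a floor of 3 cells allows a share of up to 0.704% after thinning (3.16% of them had a UMI before it), and 0.0640% of control cells. Median depths before thinning were 5944, 6197 and 5286.5 UMIs in PTH, YKL and control endothelial-like cells and 17529.5, 29507 and 16068.5 UMIs in chondrocyte-like cells. Flt1, the decoy-like receptor, stood at 683 CPM in PTH, 846 CPM in YKL and 479 CPM in control cells, ratios of 1.43 (1.30 to 1.57) and 1.76 (1.55 to 2.01).

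Tek, the angiopoietin receptor, stood at 236 CPM in PTH, 242 CPM in YKL and 199 CPM in control endothelial-like cells, ratios of 1.18 (1.02 to 1.38) and 1.22 (0.958 to 1.54). The co-receptor Nrp1 stood at 343, 302 and 259 CPM in PTH, YKL and control cells, ratios of 1.32 (1.17 to 1.51) and 1.17 (0.943 to 1.43). For Tek and Nrp1 the YKL interval spanned 1. Aplnr, the apelin receptor, was near the control level in PTH and above it in YKL cells, at 404.5 CPM in PTH (930 UMIs), 672 CPM in YKL (283 UMIs) and 411.5 CPM in control cells (539 UMIs). Its ratio was 0.983 (0.883 to 1.10) for PTH and 1.63 (1.41 to 1.89) for YKL. The share of cells with an Aplnr UMI differed less, at 46.5%, 53.5% and 46.3% after thinning in PTH, YKL and control cells (70.0%, 66.7% and 60.6% unthinned).

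Ligands counted in endothelial-like cells were Apln, Pgf and Angpt2. Apln stood at 66.1 CPM in PTH (152 UMIs), 85.5 CPM in YKL (36 UMIs) and 52.7 CPM in control cells (69 UMIs), ratios of 1.26 (0.938 to 1.69) and 1.62 (1.05 to 2.46). At the Apln to Col2a1 ratio of chondrocyte-like cells in the same library, the Col2a1 UMIs of endothelial-like cells would go with 6.19, 0.403 and 2.24 Apln UMIs, below the 152, 36 and 69 counted. For Vegfa that value was 9.75, 0.849 and 3.68 UMIs, beside 13, 9 and 12 counted. These values use the average of the chondrocyte-like class, within which PTH Apln ran from 2.03 CPM in cluster 2 to 239 CPM in cluster 9. The part of free RNA in the endothelial-like counts was not tested. Pgf stood at 57.0 CPM in PTH (131 UMIs in 24 cells), 4.75 CPM in YKL (2 UMIs in 2 cells) and 28.3 CPM in control cells (37 UMIs in 10 cells), a PTH ratio of 2.02 (1.39 to 2.99). The 13 fibroblast markers, of a class with a higher Pgf level in the PTH library, summed to 1422, 862 and 1067 CPM in PTH, YKL and control endothelial-like cells, and their part in the Pgf values was not tested. Angpt2 stood at 29.6, 23.8 and 36.7 CPM in PTH, YKL and control cells, ratios of 0.807 (0.550 to 1.19) and 0.648 (0.292 to 1.30).

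Of the 8 genes measured in endothelial-like cells, 1 was past 1.5-fold in PTH against control, Pgf, beside 13.3% of all genes (10.3% higher and 2.99% lower). Vegfa and Angpt1 had too few UMIs to be measured in either comparison, and Pgf in that of YKL. In YKL against control 4 of 7 were, beside 20.8% of all genes. Flt1, Apln and Aplnr were the 3 higher, with 14.3% of all genes higher, and Angpt2 the 1 lower, with 6.50% lower. In YKL cells Angpt2 rests on 10 UMIs in 5 cells, and its ratio interval spanned 1. Apln rests on 36 UMIs in 12 YKL cells. The median log2 ratio of all genes measured was 0.13 for PTH and 0.12 for YKL, and that of the named genes 0.32 and 0.54. Blood cell transcripts differed between these classes: erythroid markers summed to 7851 CPM in PTH, 28860 CPM in YKL and 82390 CPM in control endothelial-like cells, and neutrophil markers to 38.7, 14.3 and 3788 CPM. Of 9 erythroid markers 3, 4 and 2 were at 0 in the PTH, YKL and control cells, and of 11 neutrophil markers 4, 7 and 2. Erythroid and neutrophil markers together were 0.789% of the class UMIs in the PTH, 2.89% in the YKL and 8.62% in the control library. With them left out of the totals the PTH ratios were 1.15 (1.04 to 1.27) for Kdr, 1.31 (1.196 to 1.44) for Flt1 and 1.09 (0.939 to 1.27) for Tek, so that the Tek interval then spanned 1. The YKL ratios were then 1.37 (1.18 to 1.59) for Kdr, 1.66 (1.45 to 1.89) for Flt1, 1.54 (1.33 to 1.78) for Aplnr and 1.53 (0.992 to 2.32) for Apln. For Tek and Nrp1 they were 1.144 (0.901 to 1.444) and 1.097 (0.8875 to 1.349). Other class markers in PTH, YKL and control endothelial-like cells summed to 2306, 1045 and 1948 CPM for chondrocytes and to 1045, 929 and 1518 CPM for pericytes. All 6 tendon markers were at 0 in the YKL cells, and they summed to 144 CPM in PTH and 9.16 CPM in control cells.

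**Figure D5:**
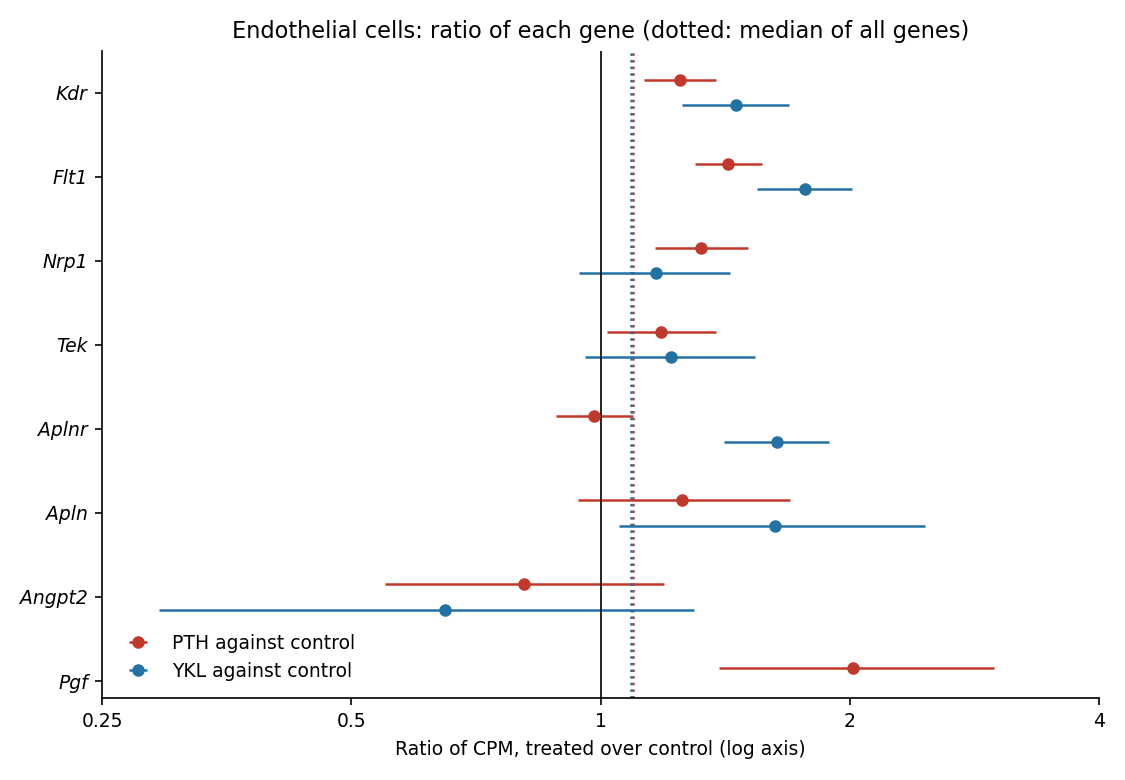
Ratio of CPM to control (log axis) of each measured gene in PTH and YKL endothelial-like cells, with exact 95% intervals that cover counting error only, and a dotted line at the median of all genes. Flt1 is at 1.43 in PTH and 1.76 in YKL cells, Aplnr at 0.983 and 1.63, and the Angpt2 intervals span 1.

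The promoters of Flt1 and Tek are shown as the receptors whose windows held 2 matches, chosen after the matches were counted, again 250 bases from RefSeq (GRCm38.p6), with capitals for AGGAA, a core of ETS factor sites that is common in endothelial genes, read on either strand. The gene Flt1 is on chromosome 5 (147561604 to 147726011, minus strand) and Tek on chromosome 4 (94739289 to 94874976, plus strand).
Flt1, chr5:147726012-147726261, minus strand: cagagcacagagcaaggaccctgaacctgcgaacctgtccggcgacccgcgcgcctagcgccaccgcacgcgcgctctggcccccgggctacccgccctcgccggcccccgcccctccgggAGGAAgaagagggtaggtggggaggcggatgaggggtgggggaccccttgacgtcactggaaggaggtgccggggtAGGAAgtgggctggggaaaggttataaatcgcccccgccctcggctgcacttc
Tek, chr4:94739039-94739288, plus strand: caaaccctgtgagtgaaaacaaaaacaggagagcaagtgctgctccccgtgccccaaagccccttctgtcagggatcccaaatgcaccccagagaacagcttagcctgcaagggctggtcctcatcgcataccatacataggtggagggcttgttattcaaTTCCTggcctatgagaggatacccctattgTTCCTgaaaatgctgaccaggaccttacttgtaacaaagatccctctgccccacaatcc
Each window holds 2 AGGAA matches and overlaps no annotated exon. Of all promoter windows 60.3% hold AGGAA. The window of Kdr (gene on chromosome 5, 75932827 to 75978458, minus strand) holds none, and those of Nrp1 and Apln hold 1 each. The window of the first start site of Vegfa, a gene counted mostly in chondrocyte-like cells, also holds 2. The second Vegfa window and those of Pgf hold none. Endothelial Kdr and Nrp1 CPM was also above control in both treated libraries, though the YKL interval of Nrp1 spanned 1. The Flt1 window also holds 2 matches to the cAMP response element core TGACG, left in lower case above. They overlap as the run TGACGTCA, 1 on each strand. The windows of Tek, Kdr, Nrp1 and Pgf hold none of that core, which was found in 17.8% of all promoter windows. Whether the matches of either motif bear on the levels of these genes was not tested.

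The 2 endothelial-like clusters differed in the apelin pair more than in the VEGF receptors. Cluster 16 (39 PTH, 10 YKL and 23 control cells) was led by Stmn2, Cldn5 and Ptprb, and cluster 3 (251, 41 and 165 cells) by Fabp4 and Plvap. Over all 3 libraries cluster 16 had 63.1 CPM of Aplnr and cluster 3 had 498 CPM, a ratio of 0.127 (0.0889 to 0.175). Aplnr was lower in cluster 16 in each library, at 65.9 against 462 CPM in the PTH, 0 UMIs against 802 CPM in the YKL and 81.3 against 466 CPM in the control library. Apln was counted 1 time in cluster 16 and 256 times in cluster 3, and Angpt2 3 and 123 times. Kdr was nearer, at 385 CPM in cluster 16 and 531 CPM in cluster 3, a ratio of 0.726 (0.629 to 0.834), and Flt1 stood at 745 and 615 CPM, a ratio of 1.21 (1.09 to 1.34). Nrp1 had a ratio of 0.997 (0.847 to 1.17) and Tek of 1.04 (0.859 to 1.25). Vegfa, though rare, lay mostly in cluster 16, with 24 UMIs against 10 in cluster 3, or 40.9 and 2.90 CPM, a ratio of 14.1 (6.50 to 33.0).

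Genes of arteries marked cluster 16, as they help define it: the gap junction gene Gja5 stood at 312 CPM in cluster 16 and 9.58 CPM in cluster 3, Sema3g at 529 and 31.1 CPM, and the Notch target Hey1 at 247 and 28.2 CPM. Vegfc, a ligand of Flt4, stood at 201 CPM in cluster 16 and 19.5 CPM in cluster 3. The venous genes Selp and Ackr1 were at 0 UMIs in cluster 16, with 588 and 571 UMIs in cluster 3. In single endothelial-like cells 74.0% of PTH, 83.3% of YKL and 78.6% of control cells with an Apln UMI also had an Aplnr UMI, against 69.2%, 61.5% and 57.5% of those without. Cells with Apln were the deeper ones, with medians of 8481.5, 10635.5 and 7259 UMIs in the PTH, YKL and control libraries, against 5681.5, 5542 and 4857 UMIs in those without.

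Other genes of the same pathways gave a mixed picture in endothelial-like cells. Of 9 listed genes of the VEGF, angiopoietin and apelin pathways beside the 10, 6 were measured in PTH against control and 0 were past 1.5-fold. In YKL against control 5 were measured and 2 were higher, beside 14.3% of all genes. They were Flt4, a VEGF-C receptor, at 54.6 CPM in YKL and 22.9 CPM in control cells, and Tie1, a partner of Tek, at 363.5 and 171 CPM, ratios of 2.39 (1.32 to 4.25) and 2.13 (1.72 to 2.62). With erythroid and neutrophil markers left out of the totals 2 were higher and 1 lower, Vegfc, beside 9.91% and 8.69% of all genes. Nrp2 stood at 197 CPM in PTH, 271 CPM in YKL and 198.5 CPM in control cells. The list's median log2 ratio was 0.10 for PTH and 0.45 for YKL, against 0.13 and 0.12 for all genes.

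Tip cell genes, which mark the leading cells of a sprout, were past 1.5-fold higher in 2 of 11 measured in PTH cells and in 5 of 9 in YKL cells, beside 10.3% and 14.3% of all genes, with none lower. With erythroid and neutrophil markers left out of the totals the counts were 1 and 3, beside 6.19% and 9.91% of all genes. In PTH cells the highest were the channel subunit Kcne3, at 29.6 CPM in PTH and 11.45 CPM in control cells, and the netrin receptor Unc5b, at 57.4 and 36.7 CPM, which was not past 1.5-fold with those markers left out. In YKL cells they were the basement membrane gene Nid2, at 159 CPM in YKL and 83.2 CPM in control cells, and the Notch ligand Dll4, at 114 and 67.9 CPM. Of arterial genes 0 of 8 were past it in PTH cells and 3 of 8 higher in YKL cells, beside 14.3% of all genes. Among these 3 were Hey1 and Gja5, at ratios of 2.02 (1.33 to 3.05) and 1.82 (1.16 to 2.83). In the YKL library the 10 cells of cluster 16 held 32 Hey1 and 30 Gja5 UMIs, and cluster 3 held 9 and 4. In the control library the 23 cells of cluster 16 held 35 and 48, and cluster 3 held 28 and 10. Of the 6 venous genes 2 were higher and 1 lower in YKL cells, beside 14.3% and 6.50% of all genes (1 and 1 with those markers left out), the lower being the chemokine receptor Ackr1 at 76.0 CPM in YKL and 155 CPM in control cells. The capillary water channel Aqp1 stood at 1228 CPM in PTH, 2038 CPM in YKL and 1007 CPM in control cells. These lists share Dll4, and the YKL counts rest on 51 cells.

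Of vessel inhibitors, 4 of 8 measured were past 1.5-fold higher in PTH endothelial-like cells, beside 10.3% of all genes, led by Tnmd, at 41.8 CPM in PTH and 4.58 CPM in control cells, and Thbs2, at 39.15 and 18.3 CPM. Tnmd is also a tendon marker, and the 6 tendon markers summed to 144 CPM in PTH and 9.16 CPM in control endothelial-like cells; their part was not tested. In chondrocyte-like cells 3 of 8 inhibitors were higher in PTH against control, beside 6.85% of all genes, and in YKL against control 1 was higher and 5 lower, beside 9.65% and 8.04%. The higher one in YKL was Timp3, an inhibitor of matrix proteases that also blocks Kdr, at 284 CPM in YKL and 98.1 CPM in control cells. Among the lower ones Thbs2, a matrix protein that restrains vessels, stood at 25.3 CPM in YKL and 65.6 CPM in control cells, and Tnmd at 2.96 and 52.5 CPM. The 6 tendon markers, Tnmd among them, summed to 198 CPM in PTH, 19.9 CPM in YKL and 105 CPM in control chondrocyte-like cells, and their part in the Tnmd values was not tested. In PTH chondrocyte-like cells Thbs2 stood at 111.5 CPM, a ratio to control of 1.70 (1.58 to 1.82).

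Other vessel ligands in chondrocyte-like cells included the chemokine Cxcl12, at 2.77 CPM in PTH, 1.48 CPM in YKL and 5.16 CPM in control cells, and Ccn2, a matricellular growth factor, at 284, 344 and 206.5 CPM. Of 10 measured, 2 were higher and 2 lower in PTH and 3 higher and 2 lower in YKL against control, beside all genes (6.85% higher and 3.20% lower for PTH, 9.65% and 8.04% for YKL). Of the hypoxia response genes, a response that is known to include Vegfa, 1 of 16 was higher and 2 lower in PTH against control (median log2 ratio −0.27) and 2 were higher and 1 lower in YKL against control (−0.15), beside medians of 0.01 and −0.02 over all genes. The higher one in both was Epas1, a hypoxia-inducible transcription factor, at 20.95 CPM in PTH, 30.6 CPM in YKL and 9.77 CPM in control cells. Adm stood at 132 CPM in PTH, 167 CPM in YKL and 101 CPM in control chondrocyte-like cells.

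Over 21 class-by-library profiles of at least 20 cells and 6813 genes, the genes whose log2(CPM + 10) was most like each of the 10 were found by Pearson's r. The receptors had close matches among endothelial genes: Mmrn2 with Kdr and Adgrl4 with Aplnr (r of 0.995 and 0.996), Esam with Flt1 at 0.99, and Dock9 with Tek at 0.97. Aplnr was next most like Dll4 and Ccm2l. Vegfa was most like Sp7, an osteoblast and hypertrophic chondrocyte transcription factor, at 0.92, then Xylt1 and Gdf5. Angpt1 was most like Osr1 at 0.94, with Fap and Clec3b next, Pgf like Mpdz at 0.88, Nrp1 like Sparcl1 at 0.91, Angpt2 like Fblim1 at 0.95, and Apln like Bambi at 0.88. The profiles of 1 library share its depth and free RNA, so these values describe likeness in these 3 libraries.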

How the data were processed

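Per the labels' protocols, callus was dissected away from marrow and digested with collagenase, and libraries were made with a droplet 3′ kit. The deposited values are raw UMI counts per gene and barcode, from Cell Ranger 4.0.0 per the file headers; mm10 and Seurat are named in the submitters' processing notes. The sources used here give no further steps, and do not say whether counting used strand.

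From the counts, barcodes with fewer than 500 genes or more than 10% mitochondrial UMIs were dropped, and barcodes marked by Scrublet (7 of 1913 in the PTH, 8 of 606 in the YKL and 40 of 2944 in the control library) were left out. Counts were normalised to 10000 per cell and log-transformed, and 2000 variable genes without the 10 followed genes gave 30 components, 15 neighbours and Leiden clusters at resolution 0.8 (scanpy 1.11.5), without integration of libraries. Clusters were named from 183 markers of 21 classes, with at least 3 markers at 2-fold over the median cluster. Clusters led by cell cycle genes or haemoglobin stayed unnamed by a rule set after the clusters were seen.

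UMIs were summed per library and class and given as CPM with exact Poisson intervals. Ratios have exact conditional binomial intervals and shares exact Clopper-Pearson ones. Classes were compared where both libraries had 50 cells. The ratio and interval steps were tested on simulated data. The 10 genes are given in each class compared. From other lists the text draws on the 4 genes with the most UMIs and those past 1.5-fold among the 2 highest and 2 lowest, and for likeness on the 3 closest genes. The genes and lists were chosen with earlier results of these data known. 14 other settings were listed with the design and 4 were added after the data were seen. 78 rows share a symbol with another row and were not used by symbol.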

Additional observations from a re-analysis of the deposited data

How the results depend on the processing

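Of 168 values recomputed under the alternatives, 146 stayed within their interval or within 1.5 times their count, 22 moved and 0 reversed. A reversal could be called only for ratios whose main interval lay wholly above or below equality, and never for counts. The interval of Vegfa in PTH against control chondrocytes did not, and that ratio ran from 0.995 to 1.18. The Vegfa ratio within Col10a1-high cells held throughout, at 1.46 to 1.74 for PTH and 1.74 to 1.95 for YKL against control. Without the chondrocyte cluster with the most Col1a1, added after the data were seen, Vegfa in chondrocytes was 1.18 for PTH and 2.14 for YKL against control, and Vegfa in Col10a1-high against zero cells was 2.95 for PTH and 1.49 for YKL cells. The high against zero ratio was 4.57 in the PTH, 2.80 in the YKL and 2.04 in the control library with at most 5% mitochondrial UMIs, and 2.13 in the YKL library both with high from 5 UMIs and with the higher minimum of genes per cell.

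Genes past 1.5-fold in PTH chondrocytes (0 of 5) were 3 of 9 with at least 20 UMIs and 1 of 4 at 5% mitochondrial UMIs. In YKL chondrocytes (2 of 5) they were 1 of 5 with cells weighted equally and 4 of 9 with at least 20 UMIs, and of 15 alternatives Vegfa was past it in 15, Pgf in 11 and Apln in 8. In PTH endothelial cells (1 of 8) they were 2 of 7 after thinning, 2 of 8 with cells weighted equally, 2 of 9 with at least 20 UMIs and 3 of 8 at 5% mitochondrial UMIs, and Pgf was past it under each. In YKL endothelial cells (4 of 7) they were 2 of 5 after thinning, 2 of 7 with doublets kept, 2 of 6 with the 10 genes among the variable genes, 2 of 7 at 20% and 2 of 6 at 5% mitochondrial UMIs; of 15 alternatives Flt1 was past it in 15, Apln in 11, Aplnr in 10 and Angpt2 in 9. The share of all genes past 1.5-fold was not computed under the settings of these counts. The counts therefore cannot be set beside it or read as particular to the 10 genes. The cause of these shifts was not tested. At 5% mitochondrial UMIs 71 PTH, 22 YKL and 54 control endothelial cells remain.

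No paired analysis was possible because each group is 1 library and the labels give no replicate numbers. The counting intervals say nothing of animals, and those of CPM and ratios say nothing of the spread between cells. The 51 YKL endothelial cells limit all YKL values of that class.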
